A study of Sus scrofa with 13 samples.

Results

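Smooth muscle contractile and pericyte genes were followed as 10 named genes, ACTA2, TAGLN, CNN1, MYH11, CALD1, SMTN, MYOCD, LMOD1, SYNPO2 and RGS5, found by their symbols in the gene count tables. All 10 were among the 27339 genes of the tables, and 6 of them (ACTA2, CALD1, SMTN, MYH11, SYNPO2 and MYOCD) had enough reads to be tested with 11868 genes in all. What was counted is 5-hydroxymethylcytosine (5hmC), the oxidised form of DNA methylation: DNA fragments carrying it were captured with an antibody, sequenced and counted per gene. The cells were mesenchymal stem cells grown out of the abdominal fat of female domestic pigs, in medium with platelet lysate. All pigs were on a diet of 2% cholesterol and had a renal artery narrowed with an irritant coil, and the fat was taken 3 weeks after the narrowing was induced, so cells of healthy pigs are in neither group. The 6 hypoxia libraries came from cells held for 48 hours at 1% oxygen, and the 6 normoxia libraries from cells held at 20% oxygen. Each library title starts with a number (110, 16, 21, 33, 49 or 4), and each number has 1 hypoxia and 1 normoxia library. The labels do not say what the number denotes.

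Contractile cells of the vessel wall build a force-generating apparatus of smooth muscle actin, smooth muscle myosin and proteins that bind them. The coactivator myocardin, working with serum response factor, switches these genes on together, and stromal cells in culture can take on a part of the same programme. Pericytes, the mural cells of small vessels, share some of these genes and carry others, among them the G-protein regulator RGS5. 5hmC is made from methylated cytosine by the TET enzymes and is commonly found within the bodies of active genes, so counts of it are a reading of the DNA and not of the messenger RNA.

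Libraries ranged from 15569948 to 27428482 reads, and genes took up 263578 to 714002 of these (1.69 to 2.89%). The normoxia library of number 21 stood apart, with the fewest gene reads, 1.69% of its reads in genes and 10.3% of low alignment quality, against 4.12% in the library with the lowest such share. Levels are given as CPM, gene reads divided by the TMM-scaled library size, and because neither the counted feature nor a matching gene length is stated, levels are compared between libraries and not between genes. Read counts at 1 gene are small here, 0 to 148 reads per library over the 10 genes. In bulk DNA, fewer cells carrying the mark at a gene and less of the mark per cell cannot be told apart.

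Between hypoxia and normoxia, none of the 6 tested members passed. ACTA2 and CALD1 had a lower 5hmC level (CPM) in hypoxia in 6 of 6 numbers, which was so for 2.59% of all tested genes. For ACTA2 in number 21 this order rests on the TMM factors, 1.03 in hypoxia and 0.889 in normoxia. There, 8 of 402015 gene reads in hypoxia and 5 of 263578 in normoxia were at ACTA2. MYH11, SMTN and SYNPO2 had log2 fold changes of -0.17, -0.12 and 0.03, and MYOCD had a higher level (CPM) in hypoxia in 5 of 6 numbers. By edgeR's quasi-likelihood test with Benjamini-Hochberg adjustment, 0 members and 0% of all genes were called without regard to the numbers. With the number as a block, 0 members and 0.0337% of all genes (4 genes) were called. At an unadjusted p under 0.05 there were 0 members without the block, where 2.73% of all genes passed, and 2 with it (ACTA2 and CALD1), where 7.09% of all genes passed in either direction and 4.49% with fewer reads in hypoxia. No tested member had groups that did not overlap, against 0.101% of all genes. DESeq2's Wald test called 0 members and 0% of 25336 genes, with 511 genes (2.02%) and 0 members at an unadjusted p under 0.05. The median log2 fold change was -0.15 over the 6 tested members and -0.04 over all genes tested.

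**Figure D1:**
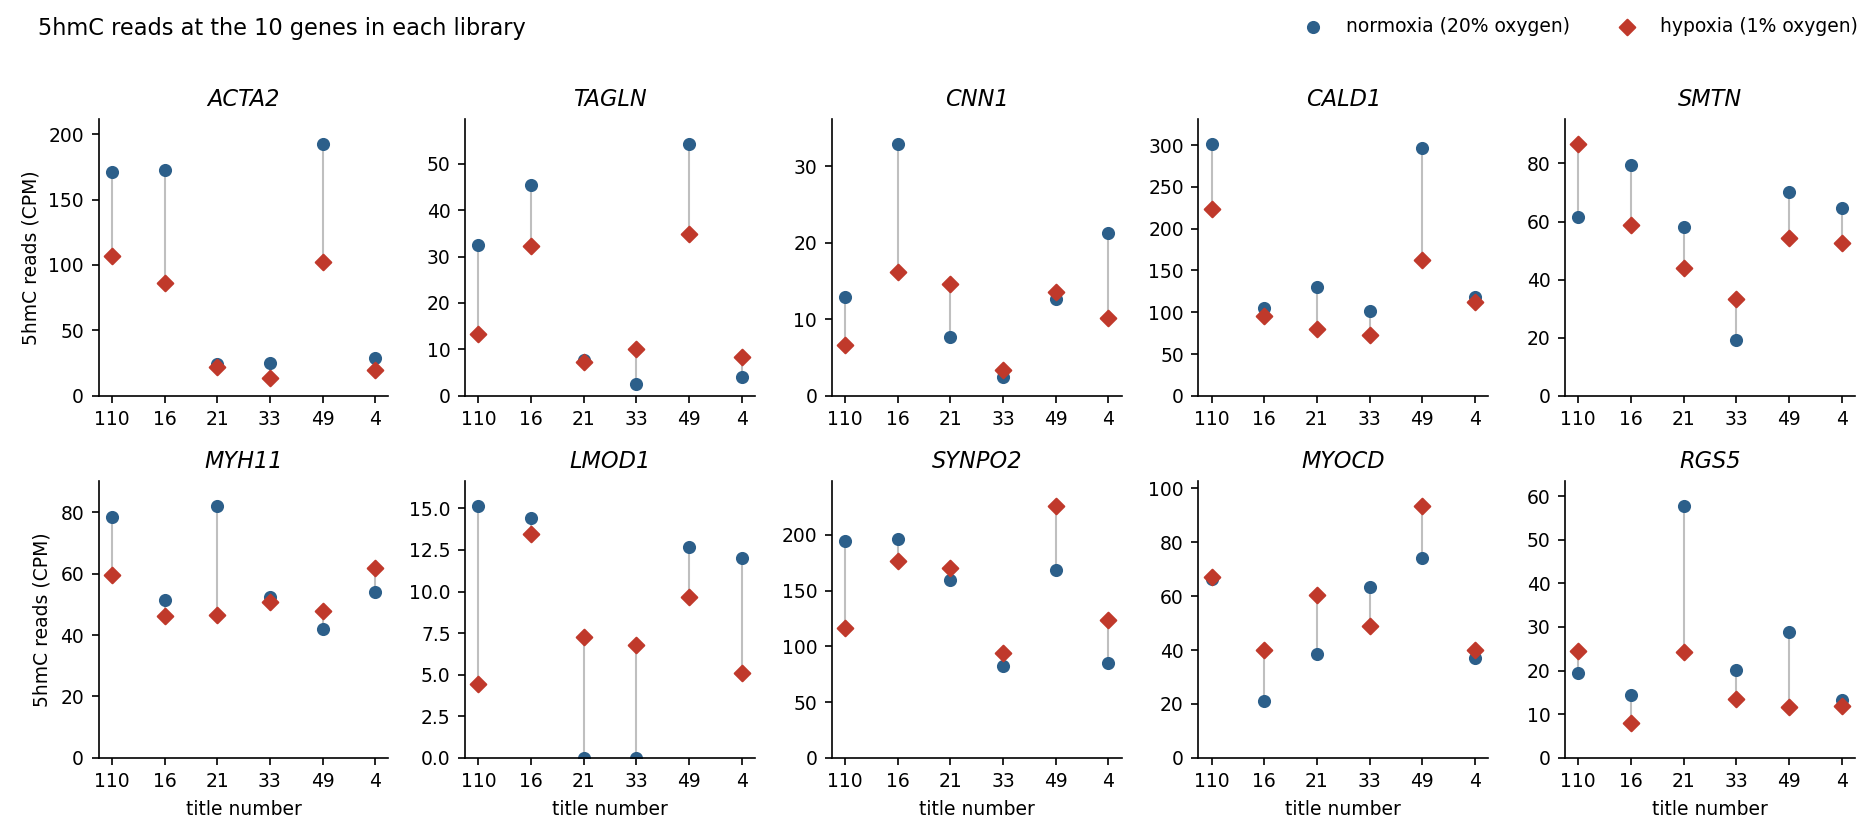
Each panel shows 1 gene, with 5hmC reads (CPM, linear axis from 0) against the title number; blue circles are normoxia libraries, red diamonds hypoxia libraries, and a grey line joins the 2 libraries of a number. ACTA2 stood at 86.5 CPM or more in both libraries of numbers 110, 16 and 49 and at 29.3 CPM or less in both libraries of numbers 21, 33 and 4.

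ACTA2 encodes smooth muscle alpha-actin, the thin filament protein that is the usual marker of contractile and myofibroblast-like cells. In hypoxia it had 107, 86.5, 21.9, 13.7, 102 and 20.0 CPM in numbers 110, 16, 21, 33, 49 and 4, and in normoxia 171, 173, 24.1, 24.8, 193 and 29.3 CPM in the same order. In CPM the hypoxia library was the lower one of every number. The groups overlapped widely, since numbers 110, 16 and 49 lay far above numbers 21, 33 and 4 in both groups. The hypoxia value was 0.501 to 0.909 times the normoxia value, closest to equal in number 21, where only 8 and 5 reads were counted. Means were 58.5 ± 44.3 CPM under hypoxia and 102 ± 84.0 CPM under normoxia (SD, n = 6 libraries). The log2 fold change was -0.86 ± 0.543 (SE) with an edgeR adjusted p of 1, and the 95% interval ran from -1.99 to 0.27. With the number as a block it was -0.77 ± 0.221, with an interval of -1.22 to -0.31, an unadjusted p of 0.00157 and an adjusted p of 0.354. Taking the number into account thus cut the standard error without moving the estimate by much, and the gene came 52nd of 11868 by p. Within sequencing lane 7 (8 libraries) the log2 fold change was -0.86 ± 0.637, and within lane 8 (4 libraries) -0.84 ± 0.669.

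CALD1 encodes caldesmon, which binds actin and myosin and restrains contraction. It had 72.2 CPM at the lowest, 104 at the median and 223 at the highest in hypoxia, and 102, 125 and 301 CPM in normoxia, on 27 to 148 reads. The ranges overlapped, and again the hypoxia library was lower in 6 of 6 numbers, at 0.549 to 0.948 times the normoxia value. The log2 fold change was -0.51 ± 0.329 (SE; edgeR adjusted p 1), with a 95% interval of -1.19 to 0.18. In the blocked fit it was -0.46 ± 0.186, with an interval of -0.83 to -0.08 and an adjusted p of 0.646. Lane 7 alone gave -0.45 and lane 8 alone -0.56.

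TAGLN, encoding transgelin (SM22-alpha), and CNN1, encoding calponin, are actin-binding proteins of one protein family and classical markers of smooth muscle. Both fell under the count filter, with 1 to 30 reads per library for TAGLN and 1 to 16 for CNN1, so they were not part of the main test. TAGLN had 13.4, 32.3, 7.28, 10.2, 34.8 and 8.46 CPM in hypoxia in numbers 110, 16, 21, 33, 49 and 4, and 32.5, 45.3, 7.70, 2.53, 54.3 and 4.00 CPM in normoxia. The hypoxia library was lower in 4 of 6 numbers, and the groups overlapped. CNN1 had 3.39 CPM at the lowest, 11.8 at the median and 16.2 at the highest in hypoxia, and 2.53, 12.8 and 33.0 CPM in normoxia, lower in hypoxia in 3 of 6 numbers. In an edgeR fit without a count filter the log2 fold changes were -0.52 ± 0.513 (SE) for TAGLN and -0.60 ± 0.458 for CNN1, each with an adjusted p of 1. Their 95% intervals, -1.57 to 0.52 and -1.53 to 0.34, leave room for changes in either direction.

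MYH11 encodes the smooth muscle myosin heavy chain, the motor of the thick filament and the marker held to be most restricted to smooth muscle. Among numbers its highest mean was 1.53 times its lowest, the smallest such ratio of the 10 genes. It had 46.4 CPM at the lowest, 49.3 at the median and 61.7 at the highest in hypoxia and 42.1, 53.1 and 82.1 CPM in normoxia. The hypoxia range lay wholly inside the normoxia range. The log2 fold change was -0.17 ± 0.242 (SE; edgeR adjusted p 1), and its 95% interval, -0.67 to 0.33, does not reach a doubling or halving.

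SMTN, encoding smoothelin, a protein of contractile actin filaments, had 33.2 CPM at the lowest, 53.5 at the median and 86.7 at the highest in hypoxia, and 19.3, 63.2 and 79.4 CPM in normoxia. Its hypoxia library was lower in 4 of 6 numbers. Its log2 fold change was -0.12 ± 0.298 (SE; edgeR adjusted p 1; 95% interval -0.74 to 0.50), and the sign turned to 0.02 within lane 7. LMOD1, encoding leiomodin, which starts new actin filaments in smooth muscle, had 0 to 9 reads per library. No read was counted in the normoxia libraries of numbers 21 and 33, where a count of 0 allows up to 11.6 and 7.58 CPM (3 reads; counting error only). Those limits lie above the 7.28 and 6.77 CPM of the hypoxia libraries of the same numbers, so in these 2 numbers no difference was detectable at this depth. In the other 4 numbers the hypoxia library was lower, by the most in number 110 with 4.47 against 15.2 CPM. Without a count filter the edgeR log2 fold change of LMOD1 was -0.38 ± 0.525 (SE; adjusted p 1; 95% interval -1.44 to 0.69).

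SYNPO2, encoding myopodin (synaptopodin 2), a partner of actin and of actin-bundling proteins, had 93.7 CPM at the lowest, 147 at the median and 226 at the highest in hypoxia and 82.6, 164 and 196 CPM in normoxia. The groups overlapped almost completely, and in 4 of 6 numbers hypoxia had the higher value. Its log2 fold change of 0.03 ± 0.270 (SE; edgeR adjusted p 1) had a 95% interval of -0.53 to 0.59. The RefSeq gene table of assembly Sscrofa11.1 places the protein-coding gene SEC24D over a stretch of SYNPO2, and uncharacterised long non-coding RNA genes over stretches of MYH11, CALD1, MYOCD and LMOD1. Reads of such shared stretches cannot be told apart by strand, since the counts come from DNA. Reads set aside in the counting as ambiguous were 0.00502 to 0.00948% of a library, and how many lay at these genes is not known.

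MYOCD encodes myocardin itself, the coactivator that turns the contractile genes on. Unlike ACTA2 and CALD1 it had slightly more reads in hypoxia, with 39.9 CPM at the lowest, 54.6 at the median and 93.5 at the highest, against 21.0, 51.0 and 74.2 CPM in normoxia. In 5 of 6 numbers the hypoxia library was the higher one, though hardly so in number 110 (66.9 against 66.5 CPM). The log2 fold change was 0.21 ± 0.308 (SE; edgeR adjusted p 1; 95% interval -0.43 to 0.85). Whether the change at MYOCD differed from that at ACTA2 was not tested.

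RGS5, which shortens G-protein signals and marks pericytes, fell under the count filter with 3 to 16 reads per library. It had 8.08 CPM at the lowest, 12.7 at the median and 24.6 at the highest in hypoxia, and 13.3, 19.8 and 57.8 CPM in normoxia. The hypoxia library was lower in 5 of 6 numbers, and the highest value was that of the normoxia library of number 21, the library that stood apart in its reads. Without a count filter the edgeR log2 fold change was -0.62 ± 0.395 (SE; adjusted p 1; 95% interval -1.42 to 0.19). Leaving that library out as well brought it to -0.30 ± 0.366.

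**Figure D2:**
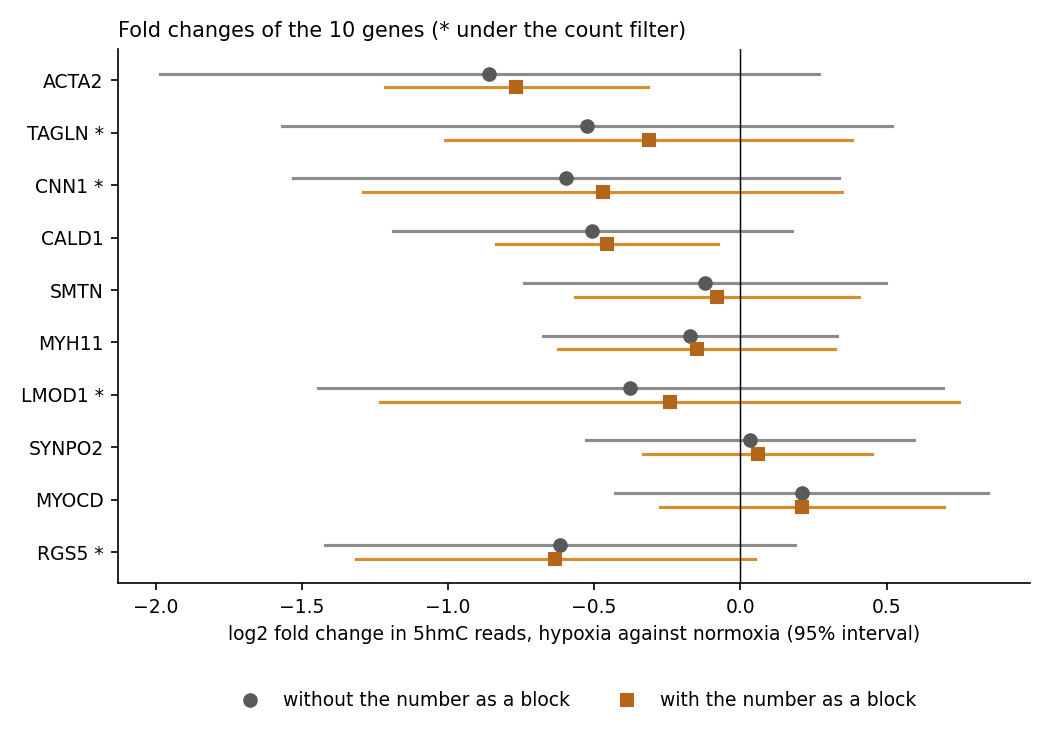
Log2 fold changes in 5hmC reads, hypoxia against normoxia, for the 10 genes, as points with 95% intervals from edgeR (grey circles without and brown squares with the title number as a block); an asterisk marks genes under the count filter, fitted without it. With the block only the intervals of ACTA2 (-1.22 to -0.31) and CALD1 (-0.83 to -0.08) do not reach 0, before adjustment over all genes.

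The second comparison asked whether libraries of different title numbers differed at these genes beyond the spread within a number, with the oxygen level held in the fit. ACTA2 and CALD1 did, and ACTA2 was the fourth strongest of 11868 genes. In this edgeR F-test over the number terms 12.8% of all tested genes (1520) were called, and 2 of the 6 tested members. ACTA2 had a fitted log2 range of 2.91 from the lowest to the highest number with an adjusted p of 9.34e-07. CALD1 had a log2 range of 1.59 and an adjusted p of 0.00093. The median log2 range was 1.46 over the tested members and 1.05 over all genes tested.

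The mean ACTA2 level of a number's 2 libraries was 139 CPM for number 110, 130 for 16, 147 for 49, 24.6 for 4, 23.0 for 21 and 19.2 for 33. No number lay between 24.6 and 130 CPM, and number 49 was 7.66 times number 33. Number 4 had 623108 gene reads in hypoxia and 714002 in normoxia, of which 11 and 19 were at ACTA2, and number 16 had 353379 and 468136, of which 28 and 74 were at ACTA2; the part of depth was not tested. CALD1 had 262 CPM in number 110 and 230 in number 49, and 87.1 to 116 CPM in the other 4 numbers, number 16 included. High ACTA2 therefore went with high CALD1 in numbers 110 and 49 but not in number 16.

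TAGLN had its 3 highest means in the same numbers as ACTA2, with 44.5 CPM in number 49, 38.8 in 16 and 22.9 in 110, and 6.23 to 7.49 CPM in the others. In the fit without a count filter, where 9.09% of 25337 genes were called, TAGLN was called with a log2 range of 2.83 and an adjusted p of 4.08e-06. CNN1 had a log2 range of 2.87 in that fit, from 2.96 CPM in number 33 to 24.6 CPM in number 16, and was not called (adjusted p 0.154).

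The other members were not called among numbers. SYNPO2 came nearest with an edgeR adjusted p of 0.0546 and a log2 range of 1.15, from 88.2 CPM in number 33 to 197 CPM in number 49. MYOCD followed with an adjusted p of 0.0848, from 30.6 CPM in number 16 to 83.8 CPM in number 49. Number 16, with high ACTA2 and TAGLN, thus held the lowest MYOCD level. SMTN (adjusted p 0.149) was lowest in number 33 at 26.2 CPM and highest in number 110 at 74.2 CPM. MYH11 ranged from 45.0 to 68.9 CPM with an adjusted p of 0.775. Without a filter RGS5, with its highest mean in number 21 (41.0 CPM), and LMOD1 had adjusted p of 0.219 and 0.771. Without the normoxia library of number 21, MYOCD and SYNPO2 were called as well as ACTA2 and CALD1, and SMTN and MYH11 were not. There, 14.3% of all genes were called. The same held without the hypoxia library of number 21, where 28.1% of all genes were called, and with number 21 left out (15.9%). TAGLN was also called in these subsets. It passed their filter only through libraries of numbers 16, 49 and 110, where it was high, so its calls there are not independent of the filter.

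Numbers 49 and 4 were sequenced in lane 8 and the other numbers in lane 7, so a number cannot be told apart from its lane between them. Within lane 7, where 7.23% of genes were called, ACTA2 (edgeR adjusted p 0.000158) and CALD1 (0.00396) were called again. Both were called in each of the 25 other settings and subsets of libraries tried, with adjusted p of at most 0.013 for ACTA2 and 0.0231 for CALD1. The highest of these came from leaving out numbers 33 and 4 together, where 2.52% of genes were called. By p, ACTA2 ranked between 5 and 33 among all genes in the 25 alternatives, with 18 within lane 7 and 33 without numbers 33 and 4.

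**Figure D3:**
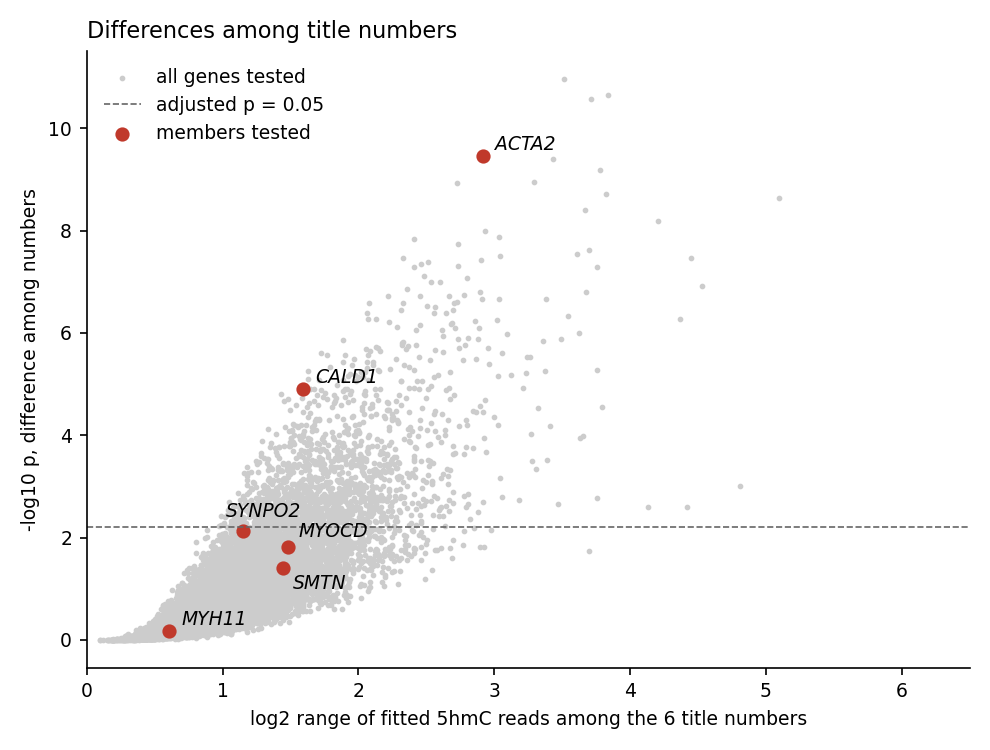
Each point is 1 tested gene, with the log2 range of fitted 5hmC reads among the 6 title numbers on the horizontal axis and -log10 of the unadjusted edgeR p for a difference among numbers on the vertical axis; the dashed line marks an adjusted p of 0.05 and the 6 tested members are in red. ACTA2 and CALD1 lie above the line, SYNPO2, MYOCD, SMTN and MYH11 below it.

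Near relatives of the members share sequence with them, and reads that fit several copies may be lost or placed at the wrong gene, so values at the actin genes carry that uncertainty. ACTG2, the enteric smooth muscle gamma-actin, was called among numbers (edgeR adjusted p 0.0354), from 24.5 CPM in number 33 to 93.9 CPM in number 16. Its means in numbers 110, 16 and 49 were its 3 highest, as for ACTA2. Within hypoxia, however, ACTG2 had 68.6 CPM in number 21 on 25 reads, above numbers 49 (60.9 CPM) and 110 (44.6 CPM). In the normoxia library of number 21 it had 14.5 CPM on 3 reads. In hypoxia against normoxia it had a log2 fold change of -0.35 ± 0.395 (SE). ACTB, the cytoplasmic beta-actin, had -0.38 ± 0.352 and was not called among numbers (adjusted p 0.13). ACTC1 (cardiac), ACTG1 (cytoplasmic gamma) and ACTA1 (skeletal) had 57, 26 and 15 reads over all libraries and were not tested.

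Of the 26 listed relatives 24 were in the tables and 16 were tested. The log2 fold change was under 0 for 13 and above 0 for 3 (median -0.24). It was under 0 for 56.6% of all tested genes. With or without the block 0 relatives were called. CNN2, a calponin of non-muscle cells, had the smallest p. It averaged 27.1 ± 7.30 CPM under hypoxia and 41.4 ± 10.1 CPM under normoxia (SD, n = 6 libraries). In CPM the hypoxia library was below in 6 of 6 numbers, as for 2.59% of all tested genes. Number 33 was nearly tied, with 35.1 CPM in hypoxia and 35.8 CPM in normoxia. Its order rests on the TMM factors, 1.06 in hypoxia and 0.950 in normoxia. There, 18 of 552867 gene reads in hypoxia and 13 of 427261 in normoxia were at CNN2. The log2 fold change of CNN2 was -0.63 ± 0.279 (SE; edgeR adjusted p 1). Among numbers 5 of the 16 (31.2%) were called, ACTG2, MYH9, LMOD2, SYNPO and RGS2, against 12.8% of all genes.

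RGS2, a relative of RGS5 that dampens signalling by contractile hormones in vessels, ranked above ACTA2 among numbers, with a log2 range of 3.71 and an edgeR adjusted p of 1.07e-07. Its levels ran in another order. RGS2 had 232 CPM in number 33 and 128 in number 4, and 17.1 to 29.2 CPM in the other 4. MYH9, the non-muscle myosin heavy chain, ranged from 74.6 CPM in number 21 to 236 in number 110 (adjusted p 0.0228). LMOD2, the leiomodin of heart and skeletal muscle, had its highest means in numbers 49 and 110, as CALD1 did (adjusted p 0.00111).

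**Figure D4:**
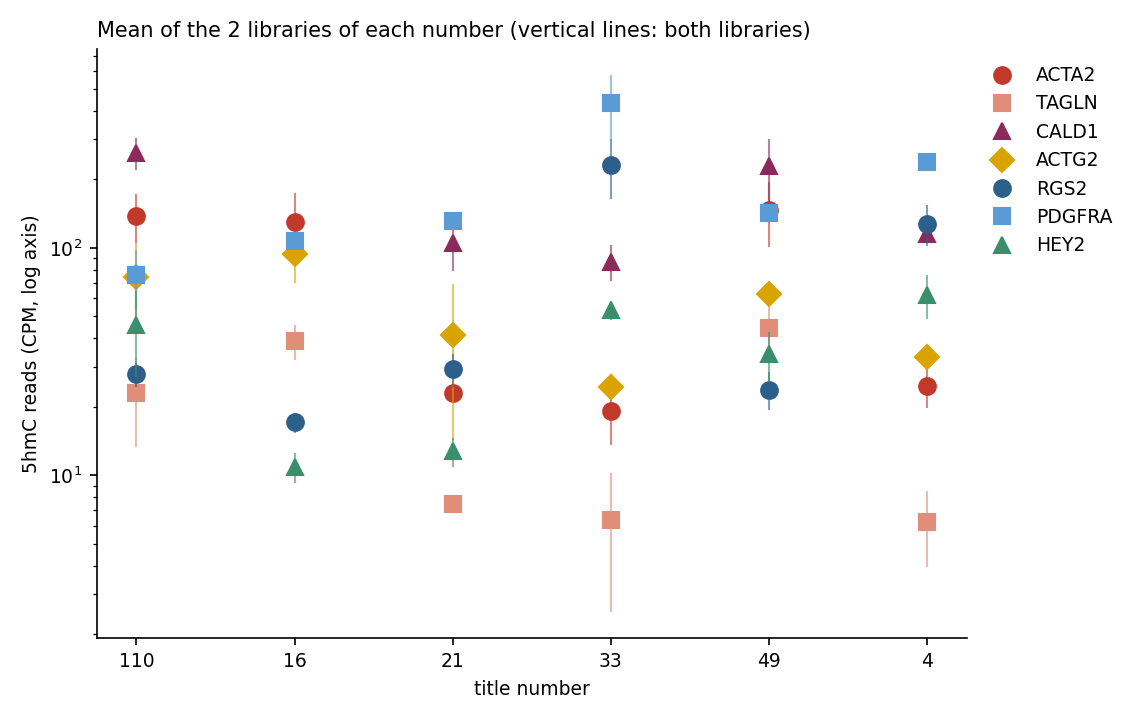
Mean 5hmC reads of the 2 libraries of each title number (CPM, log axis) for 3 members and 4 list genes chosen after their values were seen; vertical lines join the 2 libraries. ACTA2, TAGLN and ACTG2 have their highest means in numbers 110, 16 and 49, RGS2 and PDGFRA in numbers 33 and 4. For ACTG2 the hypoxia library of number 21 lies above those of numbers 49 and 110.

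The transcription regulators of the contractile programme were represented by 21 genes in the tables, of which 16 were tested. The log2 fold change was above 0 for 4 and under 0 for 12 (median -0.20), where 56.6% of all tested genes were under 0. MKL1 and MKL2 are counted here and among the relatives, so the lists are not separate. With or without the block 0 regulators were called. MKL2, a myocardin-related coactivator that responds to the state of actin, had the smallest p, with -0.35 ± 0.211 (SE) and 124 ± 18.2 CPM under hypoxia against 159 ± 34.8 CPM (SD, n = 6 libraries). CSRP2, a LIM-domain partner of serum response factor, followed with 0.41 ± 0.280. SRF, the serum response factor gene, had 0.19 ± 0.338. Genes called among numbers included KLF4, a repressor of smooth muscle genes, and the Notch target HEY2. KLF4 was highest in number 49 (65.9 CPM) and lowest in number 33 (20.4 CPM; edgeR adjusted p 0.045), and HEY2 was highest in number 4 (62.3 CPM) and lowest in number 16 (10.9 CPM; adjusted p 0.00496).

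Of the contraction and actin filament machinery 32 genes were present and 29 tested, with 5 positive and 24 negative log2 fold changes in hypoxia and a median of -0.16. None was called with or without the block. Among all genes tested 56.6% had a negative log2 fold change. NEXN, encoding the filament protein nexilin, averaged 38.0 ± 13.6 CPM under hypoxia and 63.9 ± 27.3 CPM under normoxia (SD, n = 6 libraries). Its hypoxia library was below in 6 of 6 numbers, as for 2.59% of all tested genes. The log2 fold change of NEXN was -0.70 ± 0.310 (SE; edgeR adjusted p 1). RHOA, a small GTPase that promotes contraction, had -0.61 ± 0.308. TPM1, a main tropomyosin gene, had -0.16 ± 0.233. Among numbers MYLK, the myosin light chain kinase gene that triggers contraction, and the tropomyosin gene TPM4 were called (2 of 29, 6.9%, under the 12.8% of all genes). TPM4 was highest in number 110 at 200 CPM, and MYLK in number 4 at 335 CPM.

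Other pericyte genes numbered 19 in the tables, with 13 tested, 5 positive and 8 negative, a median log2 fold change of -0.06 and 0 called with or without the block. NDUFA4L2, a mitochondrial protein gene of pericytes that is also induced by hypoxia, averaged 133 ± 31.6 CPM under hypoxia and 85.3 ± 20.8 CPM under normoxia (SD, n = 6 libraries), above in 6 of 6 numbers, as were 1.68% of all genes. Its log2 fold change was 0.63 ± 0.233 (SE) with an edgeR adjusted p of 1, and the blocked fit gave the same size with an adjusted p of 0.454. MCAM (CD146), an adhesion molecule of pericytes and endothelium, had 0.38 ± 0.270, and 0.17 without the hypoxia library of number 49. The pericyte receptor genes PDGFRB (-0.39 ± 0.347) and NOTCH3 (0.04 ± 0.243) and the proteoglycan gene CSPG4 (-0.06 ± 0.407) were not called. Among numbers the growth factor gene ANGPT1, the transcription factor gene TBX2 and the endothelin receptor gene EDNRA were called (3 of 13, 23.1%, against 12.8% of all genes).

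Markers of stromal and other cells were read in the same way, as 5hmC and not as expression, so the labelled cell type cannot be checked from them. All 6 stromal genes (ENG, NT5E, THY1, CD44, PDGFRA and PDGFRB) had reads in every library, with summed levels of 522 to 758 CPM in hypoxia and 447 to 1072 CPM in normoxia. Among numbers, where 12.8% of all genes were called, 1 of these 6 was, PDGFRA, a receptor of fibroblasts and stromal progenitors, with 433 CPM in number 33 and 75.9 in number 110 (edgeR adjusted p 3.25e-05). For endothelial genes the sums were 403 to 587 CPM in hypoxia and 313 to 481 in normoxia, with CLDN5 at 0 throughout and 1 of 6 called (VWF). Leukocyte genes summed to 431 to 550 and 424 to 581 CPM, with 1 of 5 called (SPI1), adipocyte genes to 235 to 449 and 148 to 290 CPM, and skeletal muscle genes to 82.7 to 115 and 66.9 to 133 CPM, each with 0 of 2 called. Their part in the differences among numbers at ACTA2, TAGLN and CALD1 was not tested.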

How the data were processed

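5hmC capture libraries of 12 samples were analysed; an input sample without a treatment label is not used here. The authors deposited raw HTSeq counts per gene symbol, 1 table per library; the submitters' processing notes name Bowtie2, Picard, HTSeq, MACS2 and edgeR. Their settings, the genome build, the annotation, the counted feature and the strand mode were not given in the sources used. The peak lists are not used here, since without a named build their peaks cannot be placed at these genes. Reads assigned to no gene were not analysed: 88.0 to 93.0% of reads lay outside features, 4.12 to 10.3% had low alignment quality, and a row with a blank name held 0 reads.

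Differences were tested in R 4.3.3 by edgeR 4.0.16's quasi-likelihood F-test after TMM scaling (glmQLFit, glmQLFTest), with p adjusted over all genes and a threshold of 0.05. Low genes were dropped by filterByExpr (count 10, total 15). Dividing a log2 fold change by the root of its F gave the SE. The first fit held the oxygen level, the second also the title number, tested over its 5 terms. RefSeq's gene table (Sscrofa11.1), matched by symbol for 10 of 10 members, served only for overlapping genes. Members under the filter were fitted with all genes that had a read, and their CPM come from that fit. The scripts were checked on simulated counts. Alternatives were the number as a block, DESeq2 1.42.0, other scalings and filters, lanes (read from the file names) and leaving out libraries or numbers.

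Members and lists were chosen with earlier results of these data known. Named from the lists were the actin relatives and the 2 genes of each list with the smallest p; RGS2, MYH9, LMOD2, SYNPO, KLF4, HEY2, MYLK, TPM4, TPM1, SRF, ANGPT1, TBX2, EDNRA, PDGFRA, PDGFRB, NOTCH3, CSPG4, VWF and SPI1 were chosen after their values were seen.

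Libraries were paired by the numbers that start their titles. After removal of group means, log2 CPM of libraries sharing a number correlated at 0.136 to 0.478 across genes, all above 0.1. For 4 of 6 numbers the own pair was the highest. A pair across numbers 33 and 4 reached 0.504, above the own pairs of number 4 (0.136) and number 33 (0.417), so the pairing of these numbers is uncertain. Each of the 66 pairs of libraries differed beyond sampling noise (lowest chi-square over its degrees of freedom 1.31). Nothing says that samples of a group came from separate animals, so the p-values speak only of the spread among these libraries and this spread may be technical.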

Additional observations from a re-analysis of the deposited data

Results flagged for a closer look

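Within a group of 6 libraries, a value was picked out when its gap to the nearest other one passed Dixon's 95% limit as a share of the group's whole range. Of 48 such groups, 5 held 1, where chance gives about 1 in 20. SMTN had 19.3 CPM in the normoxia library of number 33, below the other normoxia libraries, and without that library its log2 fold change was -0.29. RGS5 had 57.8 CPM in the normoxia library of number 21, above the others. The same library had the low share of reads in genes, 1.69%, and the high share of low alignment quality, 10.3%; the part of these in the RGS5 value was not tested. MCAM had 176 CPM in the hypoxia library of number 49, above the other hypoxia libraries.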

How the results depend on the processing

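Under the alternatives run, 0 members were called between hypoxia and normoxia, and ACTA2 and CALD1 kept a negative log2 fold change in all 30 (-1.12 to -0.58 and -0.74 to -0.27). Over all genes the replicate block gave 4 calls against 0, and leaving out a number in the blocked fit gave 0 to 12 (3 without 16, 1 without 49 and 12 without 21); the block changed no other call. Signs turned for SMTN (0.018 within lane 7, 0.036 in the blocked fit without number 16), for MYH11 (0.23 within lane 8) and for SYNPO2, which had -0.19 within lane 7, -0.080 in the blocked fit without numbers 33 and 4, -0.12 to 0.16 with 1 library left out, and -0.038 (number 4 left out), -0.026 (49) and up to 0.25 in the blocked fit with 1 number left out. The causes were not tested. Lane 8, the fits without numbers 33 and 4 and those without both the filter and normoxia 21 were added after seeing the data.

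Among numbers, the 1520 calls became 921 with DESeq2's likelihood ratio test, 2303 without a count filter (25337 genes tested), 834 within lane 7 (8 libraries), 296 without numbers 33 and 4, 884 to 1935 with 1 number left out and 845 to 3475 with 1 library left out, the highest without hypoxia 21. Of the members 2 to 5 were called when 1 library or 1 number was left out, where 6.91 to 28.1% of all genes were called. Without both the filter and normoxia 21, 5 of 10 members were called, against 2159 of 25321 genes (8.53%). TAGLN was tested in 13 alternatives, those without a count filter included, and called in 12. It was not called without numbers 33 and 4 (edgeR adjusted p 0.077). Where a filter was applied, TAGLN passed it only through libraries of numbers 16, 49 and 110, where it was high. Those calls are therefore not independent of the filter. Low counts limit TAGLN, CNN1, LMOD1 and RGS5. The simplest scaling, by library size, moved the median of all genes from -0.04 to 0.01, and that of the members from -0.15 to -0.10.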
